A study of Mus musculus with 4 samples.

Results

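Gene expression was compared between upper and lower molar mesenchyme of mouse embryos heterozygous for Msx1, with 1 pooled library for each jaw. Of 22072 gene names in the deposited tables, 10629 (48.2%) were measured in this comparison. A measured gene had a mean of at least 1 FPKM (a fragment count scaled to transcript length and library size) over both libraries and no transcript marked as a failed estimate in either of them. Below that mean lay 11403 names, and 40 had a failed estimate. Levels were converted to log2(FPKM + 1), and each difference is upper minus lower of these values, so changes of weakly expressed genes appear smaller than they are in FPKM. A gene is called higher or lower in the upper molar, or counted, where this difference was at least 1 in size. With no second library in any group, no difference between the Msx1+/- jaws has a replicate check or a p-value.

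The compared libraries were labelled Msx1+/-, the control genotype of the study, whose title speaks of wild type. All embryos were at embryonic day 14 and of a mixed background strain, and the Msx1 allele is not named. Laser capture, a method that isolates chosen cells under the microscope, took the mesenchyme out of frozen sections of the head, and tissue of 3 pairs of control and mutant samples was pooled before RNA was made. No label states whether the jaws of 1 pool came from the same embryos. The remaining libraries of the study, upper and lower molar mesenchyme labelled Msx1-/- (mutant), were of the same age, strain and preparation. They share no library with the Msx1+/- pair and gave a separate reading of the jaw difference in another genotype. Where 4 FPKM values are listed, they are in the order Msx1+/- upper, Msx1+/- lower, Msx1-/- upper and Msx1-/- lower molar.

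The upper molars form in the maxillary and the lower molars in the mandibular part of the first branchial arch, both filled with mesenchyme from the neural crest. In the mandibular part, endothelin signalling through the receptor Ednra turns on the paired homeobox genes Dlx5 and Dlx6, whereas Dlx1 and Dlx2 are active in both parts. Pitx1 is a homeobox gene of mandibular and hindlimb mesenchyme, Pou3f3 is a POU-domain gene of the maxillary arch, and Msx1 is a homeobox gene that the dental mesenchyme needs to pass the bud stage.

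Summed coverage over annotated transcripts was 410 megabases in the Msx1+/- upper and 324 in the lower library, and 10546 and 10677 genes reached 1 FPKM. The Msx1-/- libraries held 395 and 264 megabases. Over all measured genes the median difference was -0.08 in the Msx1+/- pair and 0.27 in the Msx1-/- pair, and rescaling the libraries by median of ratios brought these to -0.01 and -0.00. The Msx1-/- lower library was at least 1 below the other 3 libraries in 208 genes, and differences within that pair are given as deposited, to be read beside its median of 0.27. The captured tissue carried the defining genes of dental mesenchyme at high level in both Msx1+/- libraries. Msx1 was at 170, 184, 126 and 85.9 FPKM, Barx1, a homeobox gene of molar mesenchyme, at 104, 74.5, 86.4 and 83.4 FPKM, and Pax9, which the tooth bud mesenchyme requires, at 45.7, 46.3, 68.1 and 66.1 FPKM. None of these genes was counted between the Msx1+/- jaws, with Msx1 at -0.12, Barx1 at 0.47 and Pax9 at -0.02. Msx1 transcripts were thus present in both libraries labelled Msx1-/-. The tables give a single value over the whole gene and the allele is not named, so the Msx1 level does not check the genotype labels, and Msx1-/- stands for the labelled genotype throughout. Msx1 also overlaps its antisense transcript, and the labels do not say that strand was kept.

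Between the Msx1+/- jaws 175 genes (1.65% of those measured) were higher and 49 (0.461%) lower in the upper molar, together 2.11%. Only 87 of the measured names were small RNAs, yet these accounted for 13 on the higher and 24 on the lower side, a far larger share. That left 162 and 25 among the other 10542 measured genes. Several of the counted small RNAs were listed at 0 in 1 library. Examples are Mir5119 (0 in the Msx1+/- upper and 9.06 FPKM in the lower library) and Mir99a (4.15 FPKM and 0). Differences of at least 2 were seen in 41 higher and 10 lower genes. The share counted was 2.06% among genes with a mean of 1 to 5 FPKM, 2.13% from 5 to 20 FPKM and 2.22% from 20 FPKM, so it varied little with level. In the Msx1-/- pair 345 of the same genes (3.25%) were higher and 49 (0.461%) lower in the upper molar. Of the 175 higher genes 16 were higher in the Msx1-/- pair as well (0.151% of measured genes), which is 9.14% of the Msx1+/- and 4.64% of the Msx1-/- list. Of the 49 lower genes 3 were lower in both genotypes (0.0282%), or 6.12% of each list. Across all measured genes, which are no independent replicates of each other, the jaw differences of the genotypes were weakly related, with Pearson's r at 0.121 and Spearman's rho at 0.126. With libraries rescaled by median of ratios, the genes shared by both genotypes numbered 16 on the higher and 9 on the lower side, and 12 of the 16 higher and all 3 lower genes counted on deposited values were among them.

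**Figure D1:**
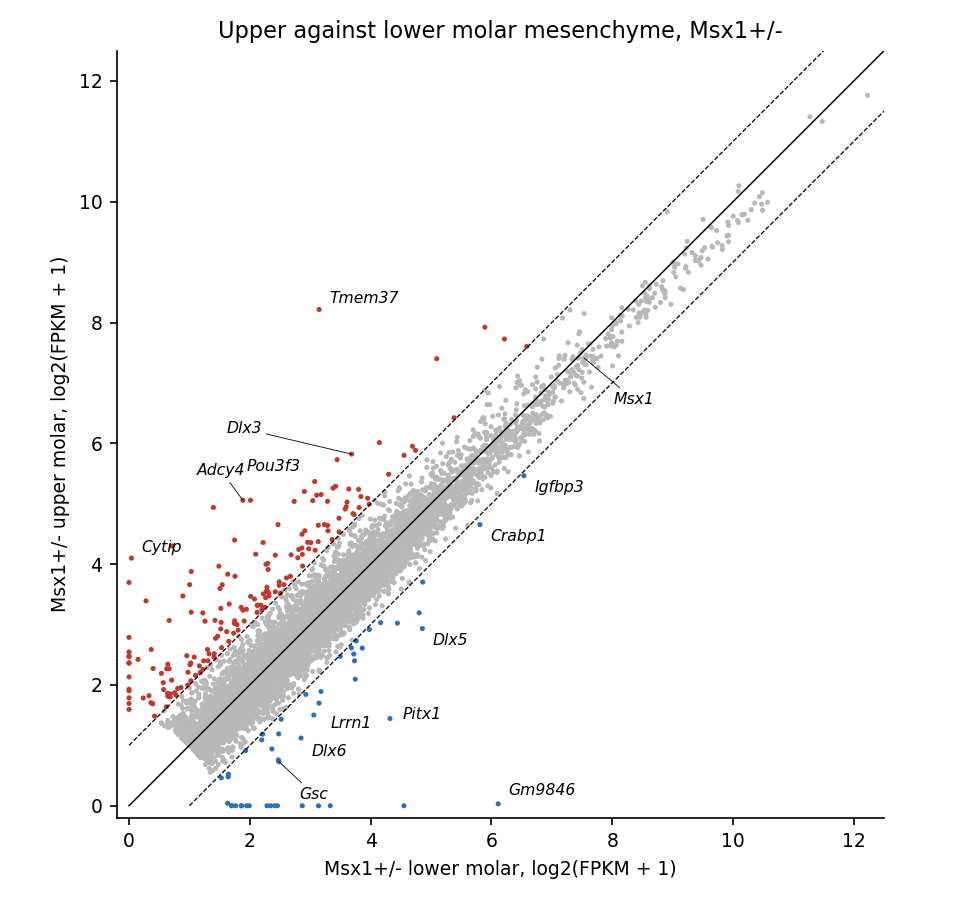
Each point is a measured gene, with its level in the Msx1+/- lower molar library on the horizontal and in the Msx1+/- upper molar library on the vertical axis, both as log2(FPKM + 1); the solid line marks equal levels and the dashed lines a difference of 1. Red points are the 175 genes higher and blue points the 49 genes lower in the upper molar, with Tmem37 (296 against 7.86 FPKM) far above and Pitx1 (1.72 against 19.0 FPKM) far below the band.

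Among the upper jaw genes Pou3f3 differed most, together with the transcripts beside it. Pou3f3 (chromosome 1, 42753991 to 42757054, mm9) was at 32.3 FPKM in the Msx1+/- upper and 3.03 FPKM in the lower library, and at 17.9 and 0.808 FPKM in the Msx1-/- pair. Both upper libraries lay above both lower libraries, with a gap of 2.23 between the nearest values on the log2 scale. The difference was 3.05 in the Msx1+/- pair, a 10.7-fold higher FPKM in the upper molar, and 3.38 in the Msx1-/- pair.

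The transcripts on either side of Pou3f3 differed with it. The deposited positions carry no strand, so distances are between lowest coordinates and not between transcript starts. The long noncoding RNA 2610017I09Rik (chromosome 1, 42705045 to 42751670, mm9) is listed by RefSeq as Pantr1 with the synonym Pou3f3os. Its lowest coordinate lies 48.9 kb below that of Pou3f3, and its highest lies just below Pou3f3. 2610017I09Rik was at 16.9, 3.28, 16.8 and 2.24 FPKM, with differences of 2.07 and 2.46. A further noncoding transcript, 2900092D14Rik (chromosome 1, 42757181 to 42760021), has its lowest coordinate 3.19 kb above that of Pou3f3. It was at 11.6, 1.01, 6.79 and 0.166 FPKM, with differences of 2.66 and 2.74. For both transcripts, too, the upper libraries lay above the lower libraries in either genotype. The next measured genes beyond them were not counted. Mrps9, a mitochondrial ribosomal protein gene 154 kb away by lowest coordinate, differed by -0.20 and Tgfbrap1, 350 kb away, by 0.65. Neighbouring measured genes within 100 kb were counted in the same direction in 8 pairs. Their share of all neighbouring pairs was not worked out, so the 8 are not read as an excess. Of these pairs only those of Pou3f3 with its neighbours were also counted in the Msx1-/- pair as deposited.

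**Figure D2:**
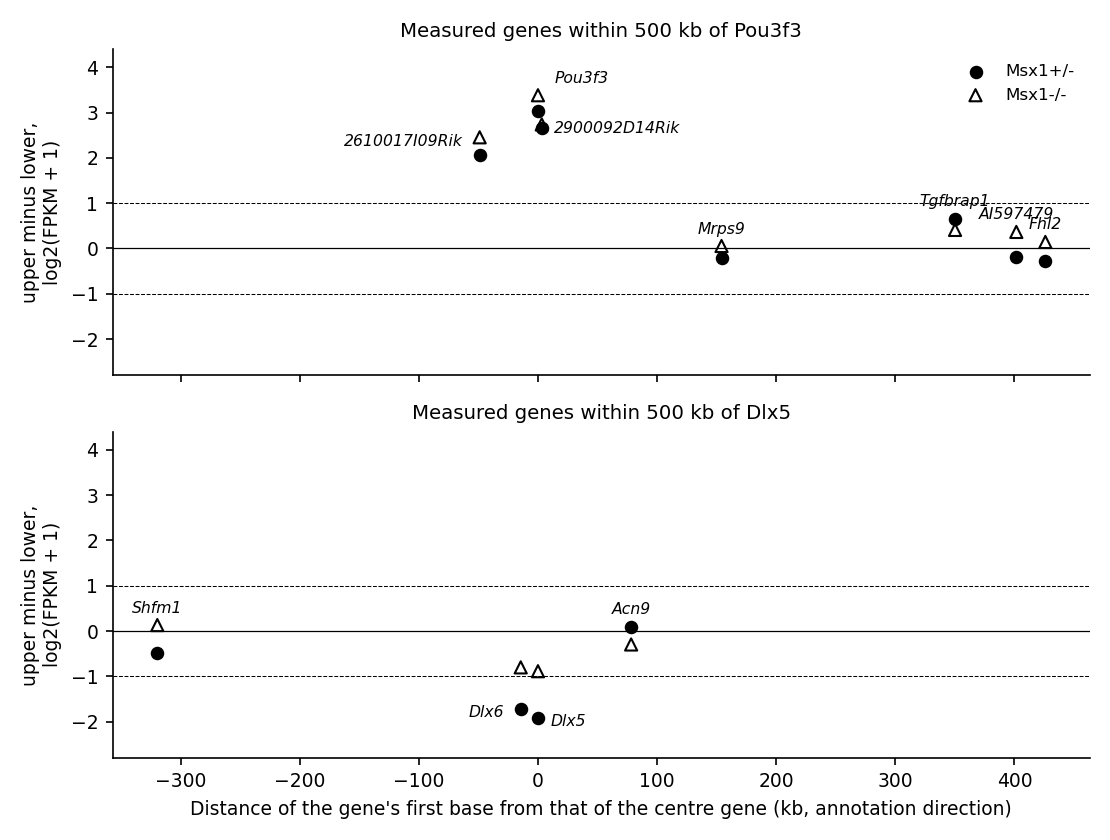
Jaw differences (upper minus lower, log2(FPKM + 1)) of the measured genes within 500 kb of Pou3f3 (top) and of Dlx5 (bottom). Genes are plotted by the distance in kb of their lowest coordinate from that of the centre gene, whatever their strand. Filled circles are the Msx1+/- and open triangles the Msx1-/- pair, and dashed lines mark a difference of 1. The 3 transcripts of the Pou3f3 region stand above 2 in both genotypes, Dlx5 and Dlx6 below -1 in the Msx1+/- pair, and the flanking genes lie between the dashed lines.

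Lower jaw genes were led by Pitx1 (chromosome 13, 55926415 to 55932786, mm9), at 1.72 FPKM in the Msx1+/- upper and 19.0 FPKM in the lower library and at 3.98 and 45.8 FPKM in the Msx1-/- pair. Its FPKM was 11-fold lower in the Msx1+/- upper molar, a difference of -2.88, and the Msx1-/- difference was -3.23. Both lower libraries lay above both upper libraries by at least 2.0. Its measured neighbours Pcbd2, 97.7 kb away by lowest coordinate, and the histone variant gene H2afy, 249 kb away, were not counted, at -0.48 and -0.28.

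Dlx5 (chromosome 6, 6827805 to 6832068, mm9) was at 6.64, 28.0, 7.44 and 14.6 FPKM. Dlx6, whose lowest coordinate lies 14.5 kb from that of Dlx5, was at 0.691, 4.55, 1.07 and 2.60 FPKM. Both were lower in the Msx1+/- upper molar, by differences of -1.92 and -1.72. In the Msx1-/- pair they stood at -0.89 and -0.80, short of the threshold, and at -1.22 and -1.06 where libraries were rescaled by median of ratios. Their flanking genes Shfm1 (-0.47) and Acn9 (0.10) were not counted. Dlx6 overlaps the antisense transcripts Dlx6as and Dlx6os1, whose reads cannot be told apart from its own without strand. Dlx6os1 itself, below the minimum level, was at 0.155, 0.952, 0.0922 and 1.03 FPKM.

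Gsc (chromosome 12, 105709419 to 105711446, mm9), a homeobox gene that acts downstream of endothelin signalling in the mandible, was at 0.660, 4.59, 2.06 and 7.13 FPKM. The differences were -1.75 and -1.41. Lrrn1 (chromosome 6, 107479720 to 107520222), which encodes a leucine-rich repeat membrane protein, was at 1.83, 7.34, 1.84 and 11.4 FPKM, with differences of -1.56 and -2.13. For Lrrn1 both lower libraries lay at least 1.56 above both upper libraries, whereas for Gsc the Msx1-/- upper and Msx1+/- lower libraries were closer together. Together with Pitx1 these were the 3 genes lower in both genotypes as deposited.

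Promoter sequences are shown for the genes counted in both genotypes that led each direction, since their transcripts moved with the jaw. RefSeq on build GRCm38.p6 supplied a sequence for 10 of the 19 genes counted in both genotypes, running from 250 bases before to 50 after the annotated start, and its coordinates are not to be set beside the mm9 positions above. Pitx1, Dlx5, Dlx6 and Dlx3 had no entry. Capitals mark matches, on either strand, to TAATCC (the core bound by bicoid-type homeodomains such as Pitx1), TAATTA (a core bound by many homeodomains, the same on both strands), TATAAA (the TATA box), CCAAT (the CCAAT box, bound by NF-Y) and GGGCGG (a GC box, bound by Sp1), and no match shown overlaps another. Pou3f3 lies on the plus strand at chr1:42695518-42695817, 2900092D14Rik on the plus strand at chr1:42700086-42700385, Gsc on the minus strand at chr12:104473187-104473486 and Lrrn1 on the plus strand at chr6:107529476-107529775.
Pou3f3: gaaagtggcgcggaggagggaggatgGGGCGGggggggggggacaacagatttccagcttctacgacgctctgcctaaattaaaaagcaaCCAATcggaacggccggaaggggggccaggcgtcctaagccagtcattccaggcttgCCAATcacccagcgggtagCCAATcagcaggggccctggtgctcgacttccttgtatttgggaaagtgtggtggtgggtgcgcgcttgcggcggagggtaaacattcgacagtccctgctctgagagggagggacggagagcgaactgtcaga
2900092D14Rik: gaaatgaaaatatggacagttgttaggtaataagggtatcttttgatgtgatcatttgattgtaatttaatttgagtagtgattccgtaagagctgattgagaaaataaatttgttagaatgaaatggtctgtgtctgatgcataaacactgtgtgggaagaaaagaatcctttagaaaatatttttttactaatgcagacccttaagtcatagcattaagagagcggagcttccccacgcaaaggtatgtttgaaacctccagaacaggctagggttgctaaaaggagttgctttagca
Gsc: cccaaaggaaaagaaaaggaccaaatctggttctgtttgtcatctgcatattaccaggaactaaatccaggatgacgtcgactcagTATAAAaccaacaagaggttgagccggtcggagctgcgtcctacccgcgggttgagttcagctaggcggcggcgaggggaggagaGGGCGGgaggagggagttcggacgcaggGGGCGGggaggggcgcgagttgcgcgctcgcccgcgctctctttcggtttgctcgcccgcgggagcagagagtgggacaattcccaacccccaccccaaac
Lrrn1: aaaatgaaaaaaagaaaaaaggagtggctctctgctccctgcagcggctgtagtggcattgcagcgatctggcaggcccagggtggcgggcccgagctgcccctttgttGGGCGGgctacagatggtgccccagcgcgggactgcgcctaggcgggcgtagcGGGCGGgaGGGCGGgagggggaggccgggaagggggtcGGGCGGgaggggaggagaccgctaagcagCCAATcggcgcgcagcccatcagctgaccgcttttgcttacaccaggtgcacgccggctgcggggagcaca

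The Pou3f3 promoter held CCAAT at 160, 103 and 84 bases before the start and GGGCGG at 224, and 60.3% of its bases were G or C. In the promoter of the neighbouring 2900092D14Rik 35.7% were, and none of the 5 motifs was found. Gsc held TATAAA at 164 and GGGCGG at 79 and 51 bases before the start. Lrrn1 held GGGCGG at 141, 88, 80 and 50 and CCAAT at 21 bases before the start. None of the 4 windows held TAATCC or TAATTA, which were found in 7.06% and 5.29% of 32851 promoters of the same length. TATAAA was present in 13.6%, CCAAT in 37.4% and GGGCGG in 35.7% of them. A match describes these letters only and is not a measured binding site.

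Of the wider list of lower jaw genes, 25 names were in the tables and 12 were measured. Of these, 4 were lower (Pitx1, Dlx5, Dlx6 and Gsc) and 1 was higher (Dlx3), against 2.11% of all genes counted. Their median difference was -0.22, against -0.08 over all genes. The endothelin receptor gene Ednra was at 29.6, 32.8, 24.6 and 30.8 FPKM, a difference of -0.14. Hand1 and Hand2, basic helix-loop-helix genes of the distal mandible, were listed at 0 in both Msx1+/- libraries. The ligand gene Edn1 was at 0 and 0.0338 FPKM. Cited1, a transcriptional cofactor gene, was on the list but stood at 18.5, 8.84, 13.5 and 5.61 FPKM, just short of being counted as higher at 0.99.

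Dlx3, the homeobox gene paired with Dlx4 on chromosome 11 (94981431 to 94986605, mm9), went against its list. It was at 55.6 FPKM in the Msx1+/- upper, 11.9 in the Msx1+/- lower and 1.25 and 1.97 in the Msx1-/- libraries. The Msx1+/- upper library was 4.68-fold above the Msx1+/- lower one, a difference of 2.14, whereas the Msx1-/- pair stood at -0.40. Whether the jaw difference of Dlx3 differs between genotypes was not tested. Dlx1 and Dlx2, the linked pair active in both parts of the arch, were at 27.8, 20.8, 17.0 and 9.64 FPKM and at 56.3, 34.7, 14.7 and 2.66 FPKM. Their differences of 0.40 and 0.68 in the Msx1+/- pair were not counted, while Dlx2 reached 2.10 in the Msx1-/- pair, where the lower library was the lowest of the 4. Dlx1 overlaps the antisense transcript Dlx1as.

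On the list of upper jaw genes 10 of 21 names were measured, and 1 was higher (Pou3f3) and 0 were lower. That is 10%, against 2.11% of all genes, and the median was 0.26. The 9 members other than Pou3f3 were not counted. Six2, a homeobox gene of facial mesenchyme, was at 122, 69.3, 111 and 21.3 FPKM, a difference of 0.80 in the Msx1+/- and 2.33 in the Msx1-/- pair. Shox2, a homeobox gene of the anterior palate, was at 8.98, 12.9, 27.0 and 20.7 FPKM, a difference of -0.48. The list of palate and oral mesenchyme genes, tissue that borders the upper molar, had 6 of 10 names measured, 0 counted and a median of 0.26. Osr2, which marks palate and the tongue side of the molar field, was at 58.9, 49.5, 58.9 and 65.2 FPKM.

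**Figure D3:**
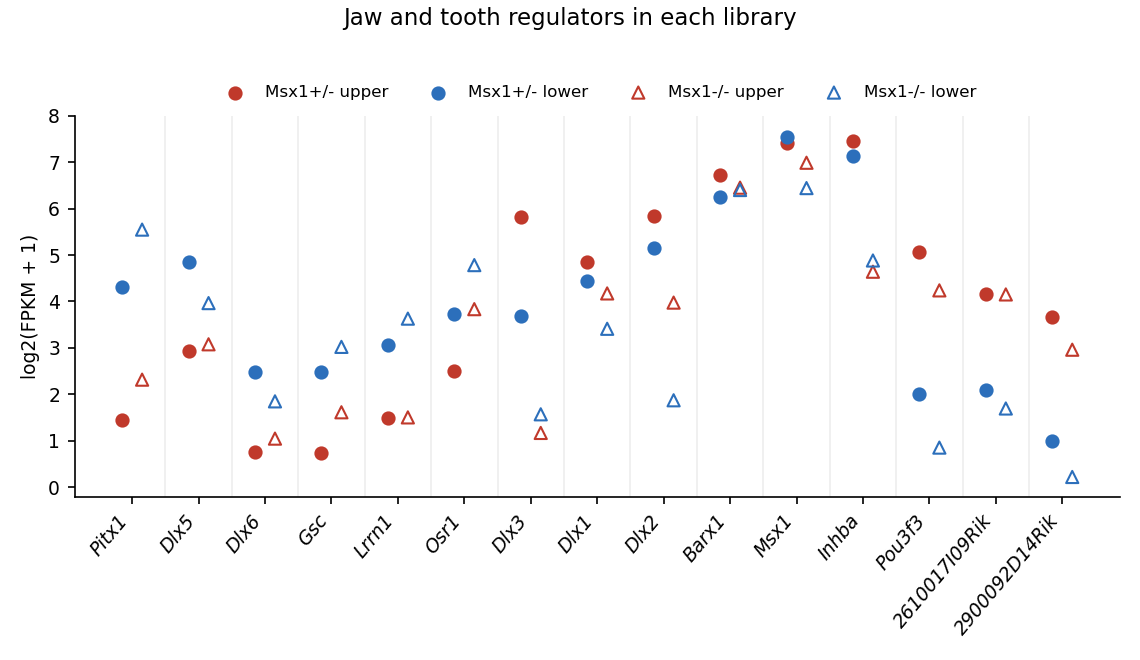
Levels of 15 jaw and tooth regulators as log2(FPKM + 1) in each of the 4 libraries; circles are Msx1+/- and triangles Msx1-/- libraries, red upper and blue lower molars, with 1 library a point and no error bar. Blue lies above red in both genotypes for Pitx1, Dlx5, Dlx6, Gsc, Lrrn1 and Osr1, red above blue for Pou3f3 and both of its neighbours, and Dlx3 is high in the Msx1+/- upper library.

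Among transcription factors of the dental mesenchyme a single gene was counted between the Msx1+/- jaws. Of 25 names 24 were measured, 0 were higher and 1 was lower (4.17%, against 2.11% of all genes). Their median was 0.14, and 18 lay above the median of all genes. The lower member was Osr1, a zinc finger gene of the odd-skipped family, at 4.70, 12.2, 13.3 and 26.5 FPKM, with differences of -1.21 and -0.95. After rescaling by median of ratios Osr1 was at -1.12 and -1.29 and was thus lower in both genotypes. Lhx6, a LIM homeobox gene of the oral side of the arch, was at 81.3, 55.6, 62.7 and 35.9 FPKM (0.54). Runx2, needed for bone and tooth matrix cells, was at 70.7, 52.0, 26.4 and 11.8 FPKM (0.43). Lef1, a nuclear Wnt effector, was at 117, 93.5, 23.1 and 11.3 FPKM (0.33).

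Most of the genes higher in the Msx1+/- upper molar were high in that library alone. In 126 of the 175 (72.0%) the Msx1+/- upper library lay at least 1 above each of the other 3, and in 110 of these the other 3 lay within 1 of each other. By the same rule the Msx1+/- lower library stood alone above in 17 genes, the Msx1-/- upper in 10 and the Msx1-/- lower in 14, but a gene high in a Msx1-/- library alone could miss the minimum level set on the Msx1+/- pair. With that minimum set on the mean of all 4 libraries instead, which was chosen after seeing the data, 10627 genes were measured. The libraries then stood alone above in 120 (Msx1+/- upper), 12 (Msx1+/- lower), 18 (Msx1-/- upper) and 26 (Msx1-/- lower) genes. The 162 higher genes that are not small RNAs had a median difference of 0.23 in the Msx1-/- pair, where all genes had 0.27, and 71 lay above that median and 91 below it. A pattern held by 1 library of 1 group cannot be told apart from a property of that library. The 25 lower genes that are not small RNAs had a median of -0.32 in the Msx1-/- pair, with 20 below its median of all genes and 5 above.

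Tmem37, which encodes a subunit-like protein of voltage-gated calcium channels, showed the largest difference of the genes higher in the upper molar, at 5.07. It was at 296 FPKM in the Msx1+/- upper library against 7.86, 0.738 and 0.569 FPKM in the others, so the Msx1+/- lower library also lay above both Msx1-/- libraries. Cytip, a gene of white blood cells that controls cytohesin, was at 16.1, 0.0280, 0.0336 and 0.0440 FPKM (4.06). Mamld1, linked to genital development, was at 18.7, 0.635, 1.05 and 0.294 FPKM (3.59). In each the Msx1+/- upper library stood far above the others, which for Cytip were near 0.

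Further genes of this kind came from unrelated classes. Slc25a42, a mitochondrial carrier for coenzyme A, was at 29.7, 1.63, 2.11 and 1.86 FPKM (3.54). Adcy4, an adenylyl cyclase, was at 32.3, 2.69, 2.76 and 2.30 FPKM (3.17), and the uncharacterised 6030405A18Rik at 9.5, 0.216, 0.0640 and 0 FPKM (3.11). Caskin1, a synaptic scaffold gene whose position overlaps that of Traf7, was at 13.7, 1.04, 0.875 and 1.31 FPKM (2.85). The other 3 libraries held similar low levels of each gene, in either jaw and genotype. Plcd3, a phospholipase C, was at 10.1, 0.855, 1.09 and 1.34 FPKM (2.58), Myo1d, an unconventional myosin, at 14.6, 1.81, 2.28 and 0.924 FPKM (2.48), and Rbm24, an RNA-binding protein of muscle, at 4.56, 0, 0.325 and 0.123 FPKM (2.48).

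**Figure D4:**
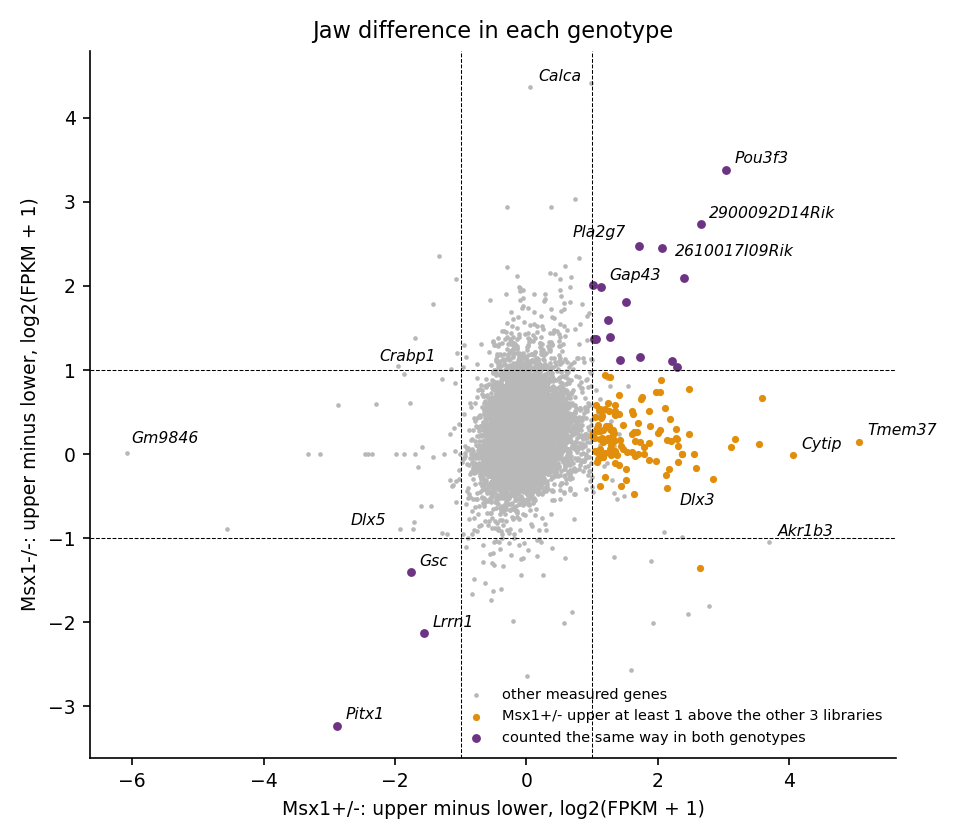
Jaw difference of each measured gene in the Msx1+/- pair (horizontal) and in the Msx1-/- pair (vertical), both as upper minus lower log2(FPKM + 1), with dashed lines at a difference of 1. Purple points are the 19 genes counted the same way in both genotypes, and orange points are genes whose Msx1+/- upper library lay at least 1 above the other 3, which gather along the horizontal axis to the right.

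Other genes were higher in the upper molar in both genotypes. Pla2g7, the secreted phospholipase that degrades platelet-activating factor, was at 15.1, 3.92, 5.6 and 0.184 FPKM, with differences of 1.71 and 2.48. Mkx, a homeobox gene of tendon, was at 15, 3.81, 4.42 and 1.44 FPKM (1.73 and 1.15). Parvb, which links integrins to actin, was at 10.7, 3.92, 7.28 and 1.74 FPKM (1.25 and 1.59). In these 3 genes the upper library was the higher of each pair, while the Msx1+/- lower and Msx1-/- upper libraries were closer together.

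Gap43, a growth cone protein of nerve fibres, was at 9.0, 3.54, 18.5 and 3.91 FPKM, with differences of 1.14 and 1.99. Dhrs3, a retinaldehyde reductase that limits retinoic acid, was at 3.61, 1.26, 3.77 and 0.842 FPKM (1.03 and 1.37). Both upper libraries lay above both lower libraries by at least 1.03 for each of these genes as deposited, and by 0.68 for Gap43 and 1.05 for Dhrs3 where libraries were rescaled by median of ratios. Full separation of the jaws by at least 1 was seen in 8 genes with higher upper molars (0.0753% of measured genes): Pou3f3, its 2 neighbours, Gap43, Dhrs3, Klhl34 and the small RNA names Mir5122 and Snord83b. It was seen in 2 genes with higher lower molars (0.0188%), Pitx1 and Lrrn1. With the rescaling, 6 of the 8 remained separated by at least 1, without Gap43 and Klhl34 (0.99), and Dlx5 and Dlx6 joined Pitx1 and Lrrn1 to make 4. Gm12191, a pseudogene that overlaps the ribosomal protein gene Rpl30, was also counted as higher in both genotypes at 211, 73.4, 132 and 37.2 FPKM. The split of reads between Gm12191 and Rpl30 was not tested, and these values are not read as a jaw difference. The remaining genes higher in both were Arhgap10, Hist2h4, Rtn4rl2 and Thap7, which together with Klhl34 are named here after their values were seen. In the Msx1-/- pair rescaled by median of ratios Mkx (0.92), Klhl34 (0.99), Arhgap10 (0.76) and Thap7 (0.82) were not counted.

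Several of the largest differences were in gene names that share their position with another. Of the 224 counted genes 61 (27.2%) overlapped another gene name in the tables, against 1694 (15.9%) of all measured genes. Gm9846 had the largest negative difference, at 0.0223, 68.2, 0.0122 and 0.00438 FPKM (-6.08), and overlaps the ribosomal protein gene Rps27, with an estimate marked LOWDATA in the tables. Summed with Rps27, the levels were 1675, 2848, 2126 and 2370 FPKM and the difference was -0.76, where the Rps27 estimate of the Msx1+/- lower library is marked as failed and Rps27 itself is therefore not among the measured genes. Akr1b3, an aldose reductase gene, was at 12, 0.000260, 2.92 and 7.13 FPKM (3.70), and Gm6644 over the same stretch was at 8.15, 26.9, 19.9 and 31.1 FPKM (-1.61). Their sum was at 20.1, 26.9, 22.9 and 38.2 FPKM, a difference of -0.40.

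Summed levels of the following overlapping pairs likewise stayed below the threshold. Rangrf (2.47) with Gm4535 (-1.06) gave 11.1, 14.8, 13.3 and 7.94 FPKM, a difference of -0.38. The polyamine enzyme names Amd2 (-1.73) and Amd1 (1.16) gave 5.45, 7.55, 6.09 and 4.89 FPKM, or -0.41. Pisd-ps1 (-1.59) with Pisd-ps3 (1.49) gave 2.56, 2.36, 3.01 and 4.59 FPKM, or 0.08. For these names the split of reads between copies is uncertain, and their single values are not read as jaw differences.

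The remaining named genes lower in the Msx1+/- upper molar had no such partner apart from Lrrtm1, which lies inside Ctnna2. Irx1, an Iroquois homeobox gene, was at 0.919, 4.16, 0.741 and 0.775 FPKM (-1.43), so the Msx1+/- lower library stood above the other 3. Lrrtm1, a synaptic adhesion gene, was at 2.71, 8.06, 38.8 and 75.1 FPKM, with differences of -1.29 and -0.94. It was lower in both genotypes after rescaling by median of ratios, at -1.19 and -1.29. Crip1, a small LIM-domain protein gene, was at 12, 28.1, 15.2 and 19.0 FPKM (-1.16), and its Msx1-/- values lay between those of the Msx1+/- jaws.

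Among the signalling lists only those of Wnt, retinoic acid and insulin-like growth factor genes held counted members. Of 29 measured Wnt genes 2 were higher and 1 lower (10.3%, against 2.11% of all genes), and the median was -0.05. Lgr6, a receptor for R-spondins, was at 10.7, 3.83, 1.13 and 0.121 FPKM, a difference of 1.28. The secreted Wnt antagonists Dkk1 and Dkk2 went opposite ways: Dkk1 was at 2.63, 0.557, 0.588 and 0.416 FPKM (1.22) and Dkk2 at 4.55, 10.3, 16.5 and 20.6 FPKM (-1.02). Under each of the 3 rescalings Dkk2 lay short of the threshold, between -0.98 and -0.90. The Wnt target Axin2 (17.0 and 13.6 FPKM in the Msx1+/- upper and lower library) and the ligand Wnt5a (16.5 and 17.1 FPKM) were not counted.

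Of 13 measured retinoic acid genes Dhrs3 was higher and Crabp1 lower (15.4%, against 2.11% of all genes), and the median was 0.01. Both genes for cellular retinoic acid binding proteins had negative differences in the Msx1+/- pair. Crabp1 was at 24.2, 55.1, 27.8 and 13.3 FPKM (-1.15) and Crabp2 at 35, 67.3, 16.1 and 36.0 FPKM (-0.92). Of these Crabp1 was counted, and in the Msx1-/- pair it stood at 1.01, the opposite sign. The synthesis gene Aldh1a2 was at 21.1, 12.3, 10.5 and 0.397 FPKM (0.73) and the receptor Rarb at 4.93, 2.66, 1.92 and 0.916 FPKM (0.70), neither of which was counted.

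Insulin-like growth factor genes showed a similar spread, with 1 of 11 measured genes higher, 1 lower and a median of -0.19. The share counted was 18.2%, against 2.11% of all genes. The ligand gene Igf1 was at 10.1, 3.04, 10.9 and 14.4 FPKM, a difference of 1.45, and the Msx1+/- lower library was the lowest of the 4. Igfbp3, which binds the ligand outside cells, was at 43.2, 92.0, 18.9 and 28.6 FPKM (-1.07), and after rescaling by median of ratios it was at -0.98. The receptor gene Igf1r was at 18.5 and 9.92 FPKM (0.84) and Igfbp2 at 11 and 21.8 FPKM (-0.92) in the Msx1+/- upper and lower library.

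The lists of activin and Tgf-beta, Bmp, Fgf, hedgehog, Notch and ectodysplasin genes held 18, 22, 17, 13, 12 and 4 measured members, and 0 of them were counted. Their medians lay between -0.11 and 0.04. Inhba, the activin subunit made by dental mesenchyme, was at 174, 138, 23.9 and 28.5 FPKM (0.33). Bmp4 was at 25, 34.7, 17.6 and 20.2 FPKM (-0.46), with an overlapping transcript Gm15217. Fgf3 and Fgf10, mesenchymal ligands that act on the tooth epithelium, were at 6.44, 8.66, 0 and 0.0365 FPKM (-0.38) and at 1.74, 2.12, 3.66 and 8.34 FPKM (-0.18). None of these 4 signals was counted between the Msx1+/- jaws. The guidance, immediate-early, cell cycle, D cyclin and CDK inhibitor, glycolysis, bone and housekeeping lists (27, 17, 30, 8, 21, 11 and 15 measured members) held 0 counted genes as well. Since only 2.11% of all genes were counted, 0 in lists of 4 to 30 members is not read as a result about them.

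Matrix genes were not counted, but collagens leaned to the lower molar in the Msx1+/- pair. Of 24 measured collagen and collagen enzyme genes 23 had a negative difference, with 19 below the median of all genes, and their median was -0.27 against -0.08. Col12a1, a fibril-associated collagen, was at 12, 19.7, 73.3 and 56.1 FPKM (-0.67), Lox, a cross-linking enzyme, at 2.05, 3.78, 18.4 and 12.6 FPKM (-0.65) and Col1a1 at 144, 181, 204 and 201 FPKM (-0.33). In the Msx1-/- pair, whose median over all genes was 0.27, the same 3 genes stood at 0.38, 0.52 and 0.02, and the list had a median of 0.24. Of 39 measured matrix glycoproteins, proteoglycans and proteases 21 lay below and 18 above the median of all genes. Tenascin C (Tnc, 20.4, 36.8, 17.8 and 17.0 FPKM, -0.82) and periostin (Postn, 155, 256, 229 and 197 FPKM, -0.72) had differences among the most negative of that list, and Timp3, a metalloproteinase inhibitor (43.1, 24.0, 12.4 and 10.5 FPKM, 0.82), the most positive.

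**Figure D5:**
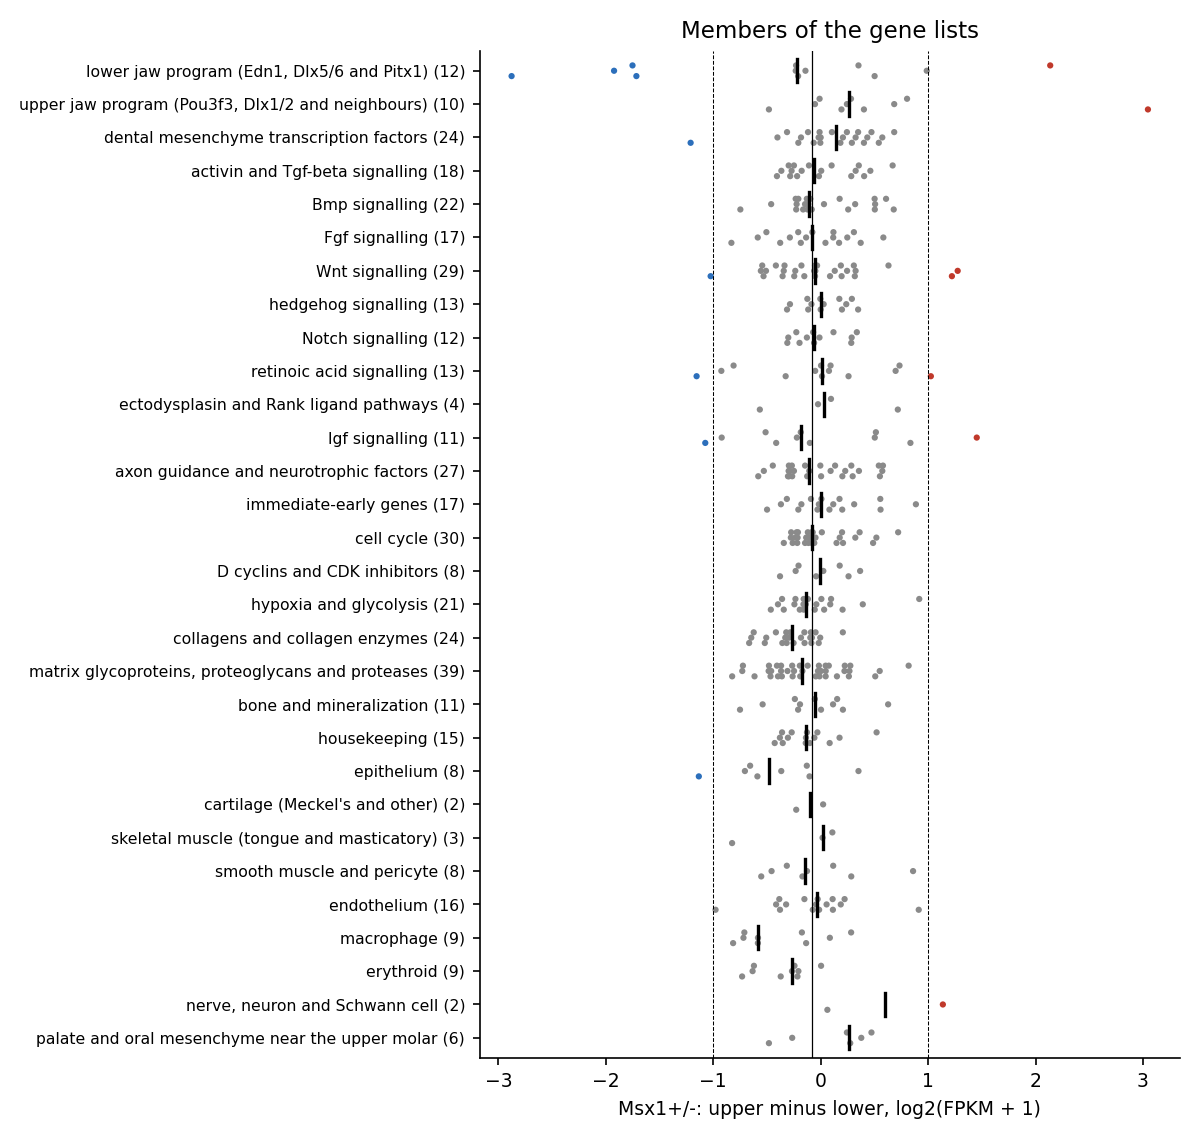
Difference between the Msx1+/- jaws (upper minus lower, log2(FPKM + 1)) for each measured member of 30 gene lists, with the number of measured members in parentheses; black bars are list medians, the solid line is the median of all genes at -0.08 and dashed lines mark a difference of 1. Red points are counted as higher and blue points as lower in the upper molar, and 22 of the lists hold no counted gene.

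Over all 30 lists, which matched 595 of 596 symbols, 418 genes were measured, and 7 were higher and 9 lower in the upper molar (3.83% against 2.11% of all genes). Because the lists were written with earlier results of these libraries known, this share is no independent evidence.

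Markers of other cell types were present in both Msx1+/- libraries, and some differed. Bulk RNA cannot tell fewer cells of a type from less RNA in each cell. Epithelial markers, from the tissue that the laser was meant to leave behind, had 8 of 20 names measured, of which 1 was lower and 0 higher, with a median of -0.48. Their summed level was 36.5, 58.8, 62.7 and 86.3 FPKM, lower in the upper molar of either genotype. The counted member was the basal keratin gene Krt5, at 7.18, 17.0, 21.3 and 28.1 FPKM (-1.13), and its partner Krt14 was at 8.69, 14.8, 13.3 and 14.5 FPKM (-0.71). Shh and Cldn3 were listed at 0 in both Msx1+/- libraries. Pitx1, Dlx5, Dlx6, Gsc and Lrrn1 moved the same way as these markers, whose part in those differences was not tested.

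Macrophage markers had 9 of 15 names measured, 0 counted and a median of -0.58, with 7 negative, and summed to 42.3, 58.5, 51.5 and 62.8 FPKM. Tyrobp was at 7.07, 12.2, 7.25 and 10.3 FPKM and Fcer1g at 8.98, 9.96, 7.41 and 10.4 FPKM, both adaptors of white blood cell receptors. Erythroid genes (9 measured, 0 counted, median -0.27) were led by the embryonic globins Hbb-y at 360, 466, 257 and 322 FPKM and Hba-x at 214, 248, 135 and 152 FPKM. Their sum was lower in the upper molar of both genotypes, at 922, 1188, 633 and 812 FPKM.

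Nerve and Schwann cell markers had 2 of 18 names measured. Gap43 was higher, as given above, and the neuropeptide gene Calca was at 25, 23.9, 40.9 and 1.04 FPKM, a difference of 0.06 in the Msx1+/- and 4.36 in the Msx1-/- pair. The summed list was at 40.8, 33.7, 64.7 and 11.2 FPKM. Below the minimum level, members of the list went both ways. Fabp7 (1.35, 0.392, 1.24 and 0.276 FPKM) had higher upper values in both genotypes. Nefl (0.658, 0.829, 0.550 and 3.52 FPKM) and Nefm (0.534, 0.816, 0.363 and 0.842 FPKM) had lower upper values in both. The part of nerve tissue in the Gap43 difference was not tested.

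Vessel and support cell markers were not counted between the Msx1+/- jaws. Endothelial markers (16 measured, 0 counted, median -0.04) summed to 120, 114, 94.4 and 85.2 FPKM, and Cdh5 was at 18.9, 18.1, 16.5 and 17.4 FPKM. Their Msx1+/- differences ran from -0.98 (Cldn5) to 0.91 (Egfl7). Smooth muscle and pericyte markers (8 measured, 0 counted, median -0.15) included Pdgfrb at 37.9, 42.7, 16.9 and 9.76 FPKM. Msx1+/- differences of that list ran from -0.55 (Acta2) to 0.86 (Mylk). Cartilage had 2 of 14 names measured, Col2a1 at 2.03, 1.98, 4.59 and 7.20 FPKM and Hapln1 at 1.30, 1.70, 3.93 and 10.3 FPKM, while Matn1 was listed at 0 in both Msx1+/- libraries. Skeletal muscle had 3 of 18 measured. In the Msx1+/- pair Myl4 was at 4.13 and 4.07 FPKM, Chrna1 at 2.70 and 2.43 FPKM, and Myf6 was listed at 0. Tnnt1 was at 0.686, 1.99, 0.493 and 1.89 FPKM. Its differences of -0.82 and -0.95 were negative in both genotypes but short of the threshold.

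Transcript length and base content were set beside those of all genes. Leaving out small RNA names, the longest annotated transcript had a median of 2818.5 bases over 10542 measured genes, 2767.5 over the 162 higher and 1406 over the 25 lower genes. Median GC content was 50.3%, 52.5% and 56.0%, known for 97.2%, 93.2% and 92.0% of these sets. The 121 genes with a lone high Msx1+/- upper library had a median length of 2839 bases, a GC content of 52.8% and a median level of 8.88 FPKM, against 5.57 FPKM over all genes.

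Genes near the thresholds show what the rules left out. Just inside the minimum mean were Wdfy1 and Tmem45b, and just outside it Sfi1 and Krt10. Just inside the difference of 1 were the lymphatic growth factor gene Figf at 1.01 and Dkk2 at -1.02, and just outside it were Las1l at 0.998 and the endothelial tight junction gene Cldn5 at -0.98.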

How the data were processed

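RNA sequencing of 4 libraries (1 per genotype and jaw) was used as deposited. The submitters' processing notes name Bowtie 0.12.7, TopHat 1.4.1 and the mm9 genome. Per the file headers, the authors' tables have Cufflinks columns (the version was not given in the sources used here): FPKM, coverage (a signal per base) and a status for each of 28107 transcript entries. FPKM was summed per gene name. Deposited coverage equalled FPKM times a constant in each library (1.05, 0.812, 1.09 and 0.924), which gave relative depth. Counts were not recovered, so no count model or counting interval is given.

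Differences were taken on log2(FPKM + 1) with pandas 2.3.3 and numpy 2.4.6 (Python 3.11.15). The Msx1+/- jaw difference itself, 1 library against 1, has no test. A limma 3.58.1 model (R 4.3.3) with genotype and jaw over all 4 libraries was an alternative, as were other pseudocounts, filters, rescalings and transcript choices. Scripts were tested on simulated data.

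Groups follow the labelled genotype and jaw. Genes were named by rule: the 15 largest differences each way without small RNA names, up to 10 each way counted in both genotypes, counted members of the jaw and tooth lists, up to 4 of every other list, the 2 most abundant markers of each cell type, a set of jaw and tooth regulators, and up to 5 each way counted oppositely in the genotypes. Other genes were named after their values were seen. The comparison, its members and all gene lists were chosen with earlier results of these data known. Starts deposited as 0-based were printed 1-based.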

Additional observations from a re-analysis of the deposited data

Results flagged for a closer look

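In 6 named genes the Msx1+/- and Msx1-/- pairs were both counted, in opposite directions, and whether the jaw difference differs between genotypes was not tested. Higher in the Msx1+/- upper molar were Akr1b3 (3.70, against -1.05 in the Msx1-/- pair), Fxyd3 (2.65 and -1.36) and Rangrf (2.47 and -1.90). Fxyd3, a regulator of the sodium pump, was at 20.1, 2.36, 1.93 and 6.51 FPKM and overlaps Lgi4. Lower in the Msx1+/- upper molar were Crabp1 (-1.15, against 1.01), Terc (-1.07 and 2.08) and Gm4535 (-1.06 and 1.21). Terc, the telomerase RNA, was at 5.13, 11.8, 9.13 and 1.39 FPKM, with its lowest value in the Msx1-/- lower library. Akr1b3, Rangrf and Gm4535 overlap another gene name, and Rangrf was near 0 (0.000203 and 0.000237 FPKM) in the libraries where Gm4535 was highest (14.8 and 13.3 FPKM). Over all measured genes 8 were higher in the Msx1+/- and lower in the Msx1-/- upper molar and 7 the reverse, of which 5 and 4 were small RNA names.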

How the results depend on the processing

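No paired analysis was possible because each group has 1 library and the labels carry no replicate numbers. Main counts were 175 higher and 49 lower genes, 16 and 3 in both genotypes, and 16 counted list members. With a pseudocount of 0.1 there were 118 lower genes, 48 higher and 15 lower in both genotypes, and 25 list members. With a pseudocount of 5 there were 64 higher and 12 lower genes, 5 and 1 in both genotypes, and 6 list members, and 22 of 73 named genes, among them Dlx6, Gsc, Lrrn1, Osr1, Igf1 and Gap43, passed below the threshold. Each of the 3 rescalings gave 9 genes lower in both genotypes. A mean of at least 5 FPKM gave 103 higher and 20 lower genes and 1 lower in both. Lower genes numbered 25 without small RNA names and, in an alternative chosen after seeing the data, 22 without overlapping gene names. The limma jaw term over all 4 libraries had 82 higher and 24 lower genes at a Benjamini-Hochberg adjusted p under 0.05 and 573 genes at an unadjusted p under 0.05. With 1 residual degree of freedom per gene limma gave every gene a spread set by its level alone, and its smallest adjusted p, 1.42e-26, was that of Gm9846, which was high in 1 library. Under limma Gm4535 stood at 0.0722 and Terc at 0.51, the opposite sign to their Msx1+/- difference. In that fit 17 counted named genes, these 2, Osr1, Dlx3 and Igf1 among them, were not past the threshold. The count of higher genes was within 1.5 times of 175 under all other settings run. Sequencing depth differed between libraries, and how far it limits weakly expressed genes was not tested.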

Other observations

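Genes outside the naming rule, chosen after their values were seen, added to the picture of each jaw. Some genes higher in the Msx1+/- upper molar were at or near 0 in both Msx1-/- libraries. Nptx1, a neuronal pentraxin, was at 27.3, 12.2, 0.221 and 0.207 FPKM, with a Msx1+/- difference of 1.09. Chrna4, a nicotinic receptor subunit, was at 3.11, 0.481, 0.148 and 0.1 FPKM (1.47), and Figf, a lymphatic growth factor, at 10.5, 4.70, 0.519 and 0.324 FPKM (1.01). On the lower side, Nxph1, a neurexin ligand (0.436, 2.13, 7.99 and 10.6 FPKM, -1.12), and Anxa1, an annexin (5.63, 12.6, 19.9 and 22.8 FPKM, -1.03), had both Msx1-/- libraries above both Msx1+/- libraries. Tbx15, a T-box gene of craniofacial mesenchyme, was at 1.70, 4.74, 17.9 and 9.52 FPKM, with a difference of -1.09 in the Msx1+/- and 0.84 in the Msx1-/- pair.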
